A study of Macaca mulatta with 8 samples.

Results

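Autophagy is the process by which a cell encloses cytoplasm, damaged organelles or aggregated protein in a double membrane and delivers it to the lysosome. A kinase complex around ULK1 starts it, a lipid kinase complex around PIK3C3 and BECN1 marks the growing membrane, conjugation enzymes attach ubiquitin-like proteins of the ATG8 family (LC3 and GABARAP proteins) to that membrane, and cargo receptors such as SQSTM1 bind both the cargo and the ATG8 proteins. In microglia, which are the macrophages that reside in the brain, the pathway is known for clearing engulfed debris and protein aggregates and for restraining inflammasome signaling.

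The RNA of 38 genes of this machinery was examined here, chosen by gene symbol from a list of function. The list holds 5 genes of initiation, 6 of nucleation, 6 of membrane expansion, 10 of conjugation, 5 of the ATG8 family, 5 cargo receptors and the transcriptional regulator TFEB. Each of the 38 had 1 row among the 35432 genes of the deposited files, and all 38 were among the 12131 genes that passed the filter on low counts.

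The libraries were made from primary microglia of the subcortical white matter of 4 adult rhesus macaques (Macaca mulatta), R07110, R12016, R02046 and R14143, without any genetic modification. All cells were cultured for 8 days with 10% FBS and M-CSF, a growth factor for macrophages, at 10 ng/mL per the labels. The study's methods give a higher concentration of M-CSF. From day 7 they received ultrapure lipopolysaccharide (uLPS, an agonist of the receptor TLR4) at 10 µg/mL for 16 h. In 1 of the 2 cultures of each donor (group uLPS + MRS2578), 5 µM MRS2578 was added 1 h before uLPS, and the other culture (group uLPS) received uLPS alone per the labels. MRS2578 was dissolved in DMSO. The study reports DMSO controls in its assays with MRS2578, but the treatment label of the uLPS libraries does not mention DMSO. MRS2578 antagonizes P2RY6, a receptor for extracellular UDP, and is described as selective but not entirely specific. Microglia without uLPS were not analysed here, so the values below describe the pre-incubation with MRS2578 and not the response to uLPS.

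Total counts ran from 9231109 to 32790348 per library, and the 38 genes together took between 0.249% and 0.404% of them. Of 11 microglial markers, 10 had 1 row in the files, and their summed level was between 3530 and 4680 CPM (read counts relative to the TMM-scaled total of the library) over the 8 libraries. TMEM119 and CX3CR1, which mark resting microglia, were at or below 0.316 CPM and 2.21 CPM. P2RY12, also on this list, was between 5.70 and 13.3 CPM, and CSF1R was between 1007 and 1471 CPM. The summed level of 4 oligodendrocyte markers was between 222 and 407 CPM, that of 5 astrocyte markers between 68.8 and 188 CPM, that of 6 endothelial and mural markers between 180 and 332 CPM, and that of 6 lymphocyte markers at or below 0.518 CPM. The 5 fibroblast markers varied most, from 90.2 to 1191 CPM. Because these are bulk libraries, fewer cells of a type and less RNA per cell cannot be told apart.

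For R02046 the condition is uncertain. In the CPM table that accompanies the study, 6 of 8 columns were proportional to the counts of the library with the same label, and the 2 columns of R02046 were proportional to the counts of the library with the opposite label. The coefficient of variation of that ratio was at most 1.42e-06 for the matching library and at least 0.361 for the next best. Calls are therefore given as labelled, after exchange of the R02046 libraries, and over the 3 donors without R02046. For single genes the value as labelled comes first, and the plot of fold changes with their intervals shows the others for all 38. Exchanging the libraries turns the sign of every R02046 difference below.

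With uLPS alone, the levels of the 38 genes spanned more than 2 orders of magnitude when expressed per kilobase of annotated exons. This scale allows for gene length. The length is the union of RefSeq exons over all transcripts of a gene, whereas the counts are per Ensembl gene. The union can exceed a single transcript (3653 against 1428 bases for WDR45), so the levels and their order are approximate. SQSTM1 was at 257.8 ± 39.7 CPM per kb (SD, n = 4) and GABARAP, a member of the ATG8 family, at 251.5 ± 25.6 CPM per kb. The ranges of these over the 4 donors overlapped. GABARAPL2, which belongs to the same family, came next at 43.1 ± 6.57 CPM per kb, and BECN1, the scaffold of the lipid kinase complex, followed at 34.4 ± 3.20 CPM per kb. The lowest level was that of ATG10, the enzyme that transfers ATG12 to ATG5, at 1.19 ± 0.378 CPM per kb. Of the 37 pairs of neighbours in this order, 34 had overlapping ranges with uLPS, so that most of the order is not resolved by 4 donors. The exceptions were GABARAP above GABARAPL2, GABARAPL2 above BECN1, and ATG14 above ATG10.

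**Figure D1:**
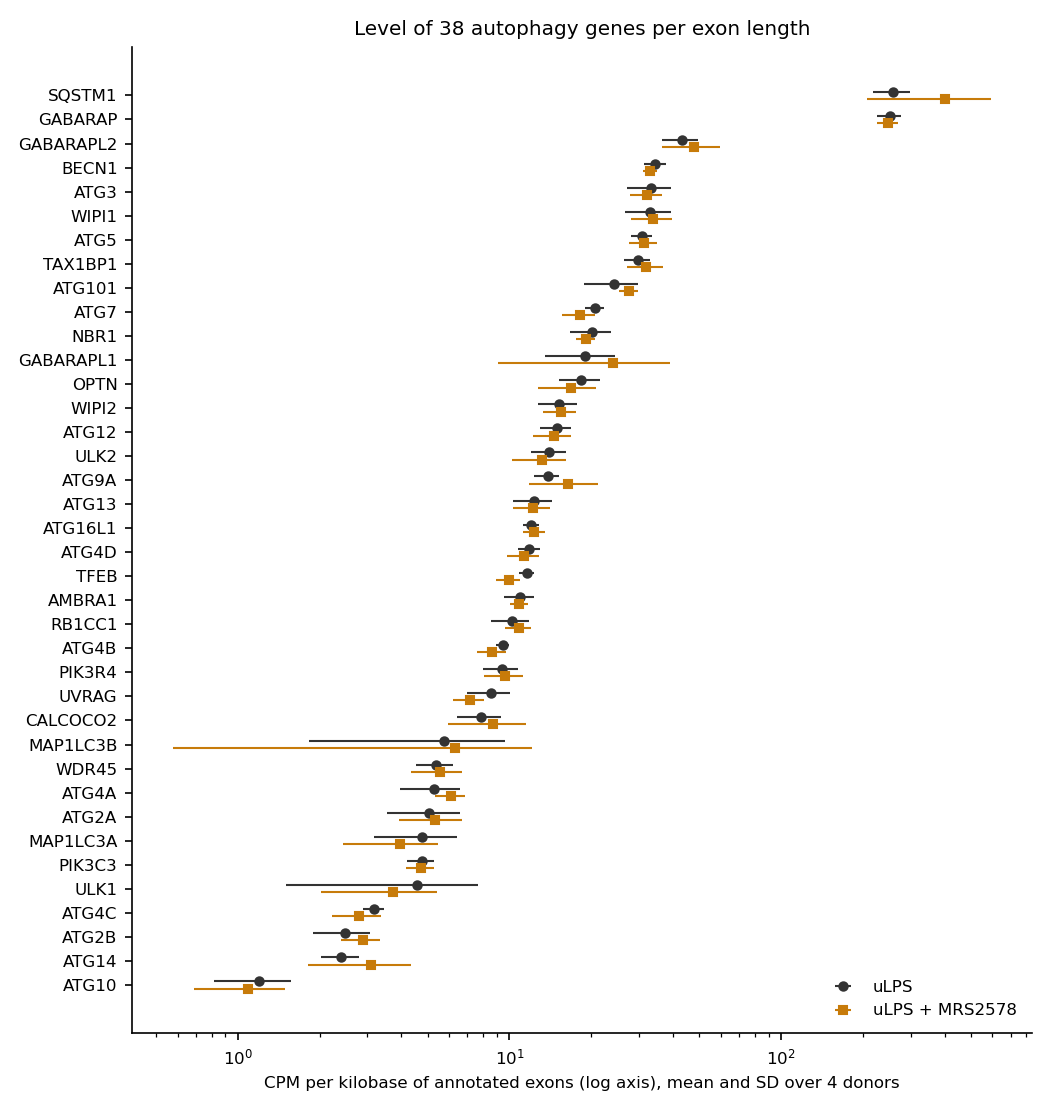
Level of the 38 genes in CPM per kilobase of annotated exons on a log axis, with points at the mean and bars for the SD over 4 donors, for uLPS and for uLPS + MRS2578 with the deposited labels. SQSTM1 and GABARAP stand above all other genes in both groups, and the widest bars relative to the mean belong to MAP1LC3B.

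The level of MAP1LC3B, which encodes the LC3B protein used as the standard marker of autophagosomes, cannot be read at face value. The gene lies on chromosome 20 (74388317 to 74400917, plus strand, Mmul_10), and bases 11 to 718 of its 718-base RefSeq transcript are identical to an uninterrupted stretch of chromosome 2 (4779990 to 4780697, plus strand), where the annotation places LOC697790. All 375 coding bases are the same at both places. The first 120 are shown because their letters alone cannot tell one place from the other.

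MAP1LC3B and the chromosome 2 copy: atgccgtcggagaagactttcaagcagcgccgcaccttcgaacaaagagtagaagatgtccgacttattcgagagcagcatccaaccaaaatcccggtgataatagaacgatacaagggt

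Only reads that map to 1 place were counted per the study's methods. MAP1LC3B received between 40 and 386 counts per library, which is 2.93 to 24.4 CPM, and where along the gene these reads fall is not recorded in the counts. GABARAP (chromosome 16, 7007913 to 7009875, minus strand) also has a near copy, 98.082% identical over 834 bases, on chromosome 13 (88094495 to 88095328, minus strand, LOC702827). Its first 120 coding bases and those of the copy are given with the differing base in capitals, since such a base tells the gene from the copy.

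GABARAP: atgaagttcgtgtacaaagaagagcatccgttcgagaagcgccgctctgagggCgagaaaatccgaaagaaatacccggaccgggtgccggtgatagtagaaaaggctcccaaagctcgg

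Copy on chromosome 13: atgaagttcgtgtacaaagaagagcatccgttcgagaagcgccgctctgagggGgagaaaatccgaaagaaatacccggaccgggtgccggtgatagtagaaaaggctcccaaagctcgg

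Over the whole coding sequence, 5 of 351 bases differ between GABARAP and this copy. A further stretch of GABARAP is 92.267% identical to chromosome 1 over 569 bases. GABARAPL1 is 91.501% identical over 1706 bases to a stretch of chromosome 7, and WDR45 is 94.765% identical over 1108 bases to a stretch of chromosome 5. The counts of these 4 genes are uncertain to the extent that reads were shared. At 90% identity or more, 98.6% of the MAP1LC3B transcript, 97.3% of that of GABARAP, 92.4% of that of GABARAPL1 and 77.5% of that of WDR45 have a match elsewhere. No other of the 38 transcripts had more than 6.0% of its length repeated elsewhere at 90% identity or more.

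Pre-incubation with MRS2578 was compared with uLPS alone within donors, to find which autophagy genes differ when P2RY6 is blocked during TLR4 stimulation. With the deposited labels, 0 of the 38 genes had an adjusted p under 0.05 (quasi-likelihood test in edgeR, blocked by donor, Benjamini-Hochberg adjustment over all genes tested), where the background was 0% of all 12131 genes. At an unadjusted p under 0.05 the count was 0 of 38, against 5.14% of all genes, and edgeR's likelihood ratio test and DESeq2 each also called 0 of the 38, against 5 and 1 of all genes. The smallest adjusted p among the 38 was 0.878. With the R02046 libraries exchanged, 0 of 38 passed where 0.618% of all genes did, and 5 had an unadjusted p under 0.05 (2 higher, 3 lower), against 16.4% of all genes. Without R02046, 0 of 38 passed, with a background of 0% of 12295 genes, and 6 had an unadjusted p under 0.05 (3 higher, 3 lower), against 13.6% of all genes. The smallest adjusted p was 0.106 and 0.270 in these fits.

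The log2 fold changes lay close to 0 and were balanced. Their median over the 38 genes was -0.0003 with the deposited labels, 19 being above and 19 below 0, and the median over all genes tested was -0.0097. After exchange of the R02046 libraries the median of the 38 was -0.0226, and without R02046 it was -0.0123, beside 0.0012 and -0.0035 for all genes. No gene of the 38 had groups that did not overlap in CPM, where 1.08% of all genes did. The 95% interval of the log2 fold change lay within 1.5-fold in either direction (0.585 on the log2 scale) for 31 of the 38. It extended beyond that for ULK1, ATG14, ATG2B, ATG10, MAP1LC3A, GABARAPL1 and SQSTM1, and for these a difference of 1.5-fold is within the error of the data. With the R02046 libraries exchanged 28 of 38 intervals stayed within that limit, and without R02046, where 3 donors remain, 20 did.

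**Figure D2:**
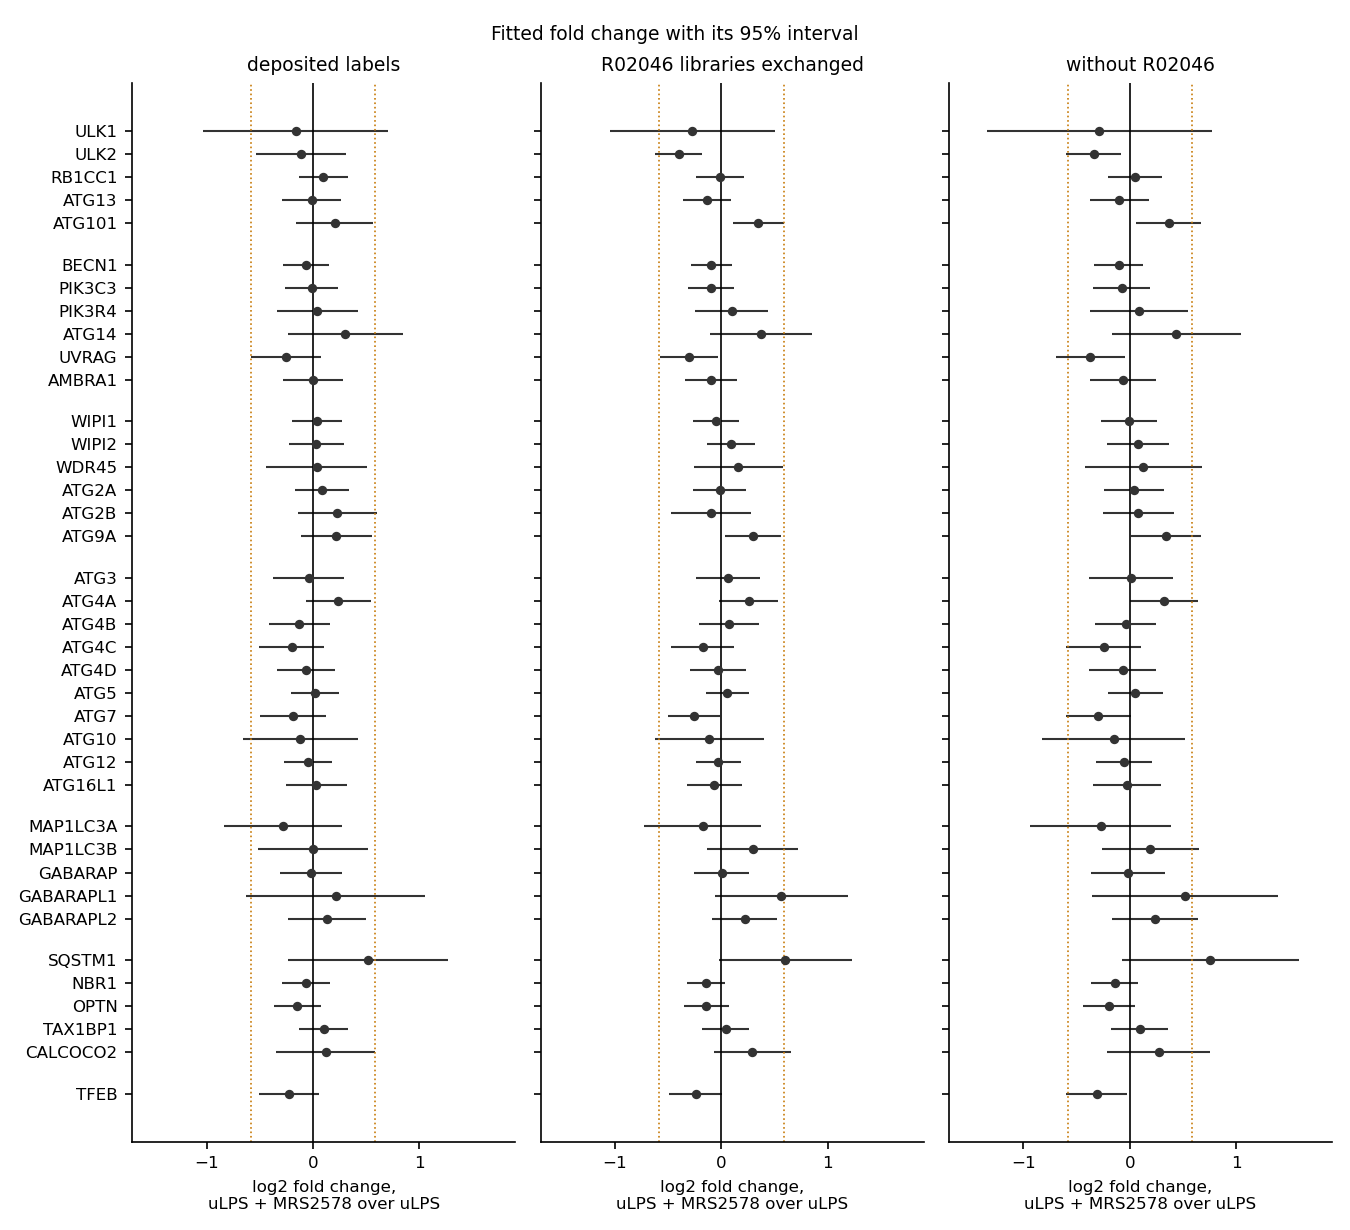
Log2 fold change of uLPS + MRS2578 over uLPS for the 38 genes, with points at the estimate and bars for the 95% interval, in panels for the deposited labels, the exchanged R02046 libraries and the 3 donors without R02046; dotted lines mark 1.5-fold. With the deposited labels every interval includes 0 and 31 of 38 stay between the dotted lines, and SQSTM1 and ULK1 have the widest reach upwards and downwards.

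Among the cargo receptors, SQSTM1 (chromosome 6, 177217017 to 177254911, plus strand), which carries ubiquitinated aggregates into autophagosomes, had the largest log2 fold change of all 38 genes. It went from 616 CPM with uLPS to 1214 CPM with uLPS + MRS2578 in R07110, from 572 to 1666 CPM in R12016, from 674 to 603 CPM in R02046, and from 809 to 671 CPM in R14143. The level was thus higher with MRS2578 in R07110 and R12016 and lower in the others, and the 603 CPM of R02046 lay within the range of the uLPS group. The log2 fold change amounted to 0.52 (SE 0.32, adjusted p = 0.878). Exchanging the R02046 libraries gave 0.60 (adjusted p = 0.321), and leaving R02046 out gave 0.76 (adjusted p = 0.407). As a share of the counts of all 38 genes, SQSTM1 went from 24.3% to 38.4% in R07110 and from 21.3% to 42.1% in R12016, against 25.4% to 23.1% in R02046 and 27.5% to 26.0% in R14143.

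CALCOCO2 (also called NDP52), a receptor for invading bacteria and damaged mitochondria, had the direction of SQSTM1 in each donor. It went from 28.4 to 34.5 CPM in R07110, from 30.6 to 52.1 CPM in R12016, from 41.2 to 32.4 CPM in R02046 and from 29.6 to 25.1 CPM in R14143. The groups overlapped, and the log2 fold change was 0.12 (SE 0.19, adjusted p = 0.945). For CALCOCO2 the exchange of the R02046 libraries gave 0.29 (adjusted p = 0.408), and leaving R02046 out gave 0.27 (adjusted p = 0.613). TAX1BP1, which helps deliver ubiquitinated aggregates and limits NF-kB signaling, went from 110 to 125 CPM in R07110, from 145 to 168 CPM in R12016, from 128 to 139 CPM in R02046 and from 134 to 124 CPM in R14143. These differences were small and the ranges of the groups overlapped (log2 fold change 0.10, SE 0.10, adjusted p = 0.906).

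NBR1, a receptor that acts together with SQSTM1, went from 130 to 122 CPM in R07110, from 153 to 136 CPM in R12016, from 101 to 112 CPM in R02046 and from 146 to 131 CPM in R14143. Unlike SQSTM1, it was lower with MRS2578 in R07110 and R12016 (log2 fold change -0.07, SE 0.10, adjusted p = 0.934). The value for NBR1 was -0.14 both after exchange of the R02046 libraries (adjusted p = 0.410) and without R02046 (adjusted p = 0.559). OPTN, a receptor for damaged mitochondria and bacteria, went from 103.04 to 87.0 CPM in R07110, from 113 to 109 CPM in R12016, from 105 to 104 CPM in R02046 and from 74.0 to 61.0 CPM in R14143. It was lower in all 4 donors, which an exact sign-flip permutation test over 4 donors cannot call (the smallest two-sided p it allows is 0.125), and the fitted log2 fold change was -0.15 (SE 0.09, adjusted p = 0.881).

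**Figure D3:**
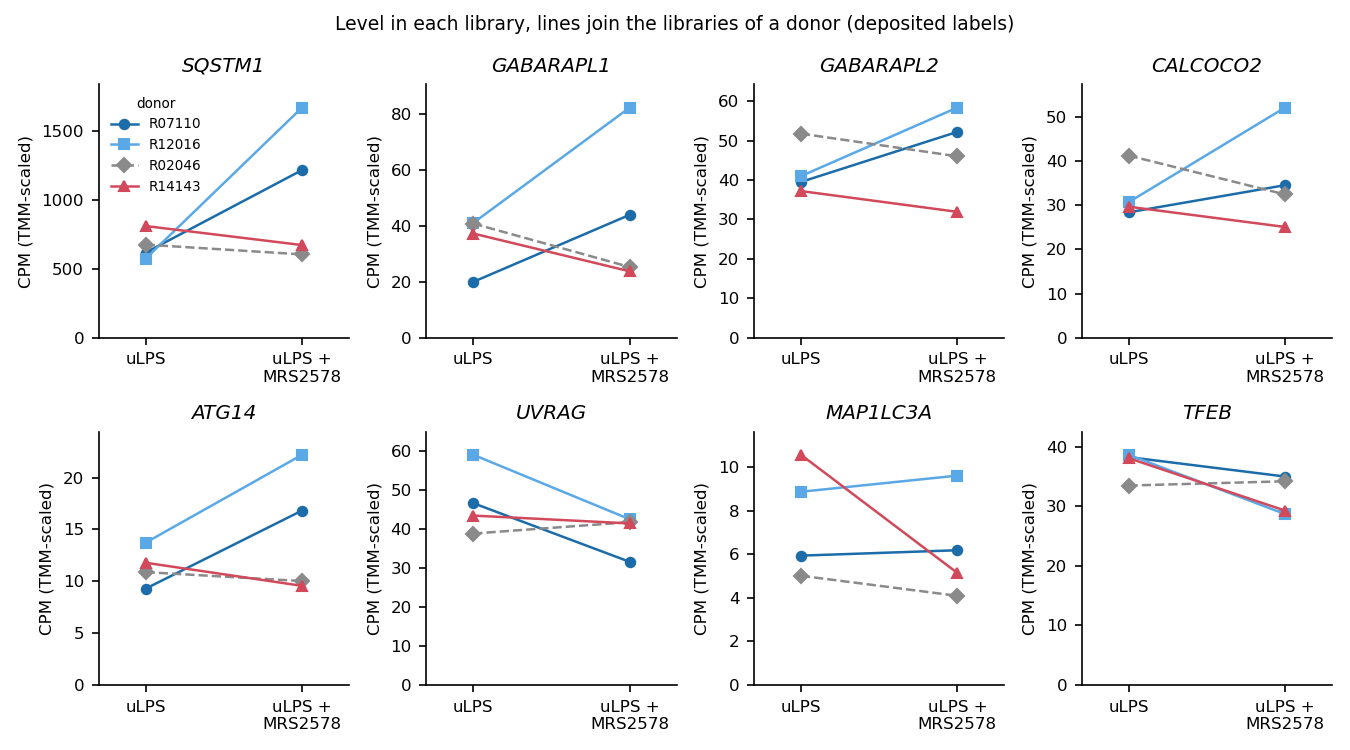
Level in CPM of 8 genes in each library, with uLPS on the left and uLPS + MRS2578 on the right of each panel and a line joining the libraries of a donor; the dashed line is R02046, whose labels are uncertain. SQSTM1, GABARAPL1, GABARAPL2, CALCOCO2 and ATG14 go up in R07110 and R12016 and down in R02046 and R14143, and UVRAG goes down in all donors but R02046.

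Of the ATG8 family, GABARAPL1 (chromosome 11, 9488549 to 9498716, minus strand) behaved most like SQSTM1. It went from 20.0 to 43.9 CPM in R07110, from 41.0 to 82.2 CPM in R12016, from 40.8 to 25.2 CPM in R02046 and from 37.2 to 23.7 CPM in R14143. The difference was at least 1.5-fold in every donor, upwards in R07110 and R12016 and downwards in R02046 and R14143, so that the log2 fold change was 0.21 with an SE of 0.35 (adjusted p = 0.945). Exchanging the R02046 libraries gave 0.56 (SE 0.27, adjusted p = 0.350), and leaving R02046 out gave 0.52 (adjusted p = 0.582).

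GABARAPL2, which like the other GABARAP proteins acts late in the closure of autophagosomes and in their fusion with lysosomes, went from 39.5 to 52.2 CPM in R07110, from 41.0 to 58.4 CPM in R12016, from 51.8 to 46.0 CPM in R02046 and from 37.2 to 31.9 CPM in R14143. It shared the direction of GABARAPL1 in each donor, with smaller differences (log2 fold change 0.13, SE 0.15, adjusted p = 0.927). The value for GABARAPL2 was 0.22 after exchange of the R02046 libraries (adjusted p = 0.452) and 0.23 without R02046 (adjusted p = 0.595). GABARAP itself had the highest counted level of the ATG8 genes, although its counts and those of MAP1LC3B are uncertain because of their copies. GABARAP went from 206 to 202 CPM in R07110, from 182 to 228 CPM in R12016, from 218 to 210 CPM in R02046 and from 232 to 184 CPM in R14143. Its groups had close means, 210 ± 21.4 and 206 ± 18.1 CPM (SD, n = 4), and the log2 fold change was -0.02 (SE 0.12, adjusted p = 0.991).

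MAP1LC3A, which encodes another LC3 protein, was scarce, between 4.10 and 10.6 CPM. It went from 5.94 to 6.19 CPM in R07110, from 8.87 to 9.61 CPM in R12016, from 5.02 to 4.10 CPM in R02046 and from 10.6 to 5.14 CPM in R14143. The single large difference was that of R14143, the donor with the highest level with uLPS, and the log2 fold change was -0.28 (SE 0.23, adjusted p = 0.901). MAP1LC3B went from 3.17 to 3.64 CPM in R07110, from 16.9 to 24.4 CPM in R12016, from 5.23 to 2.93 CPM in R02046 and from 15.0 to 13.4 CPM in R14143. Here the donors differed far more than the groups, and the log2 fold change was at 0 to 2 decimals (SE 0.22, adjusted p = 0.999), with counts that are uncertain because of the copy on chromosome 2. The estimate for MAP1LC3B was 0.29 after exchange of the R02046 libraries (adjusted p = 0.478) and 0.19 without R02046 (adjusted p = 0.709).

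TFEB (chromosome 4, 127654390 to 127708200, plus strand), the transcription factor that drives lysosomal and autophagy genes, went from 38.3 to 35.0 CPM in R07110, from 38.7 to 28.7 CPM in R12016, from 33.5 to 34.2 CPM in R02046 and from 38.1 to 29.3 CPM in R14143. It was lower with MRS2578 in 3 of 4 donors, and the 35.0 CPM of R07110 and 34.2 CPM of R02046 kept the groups overlapping. The log2 fold change of TFEB was -0.23 (SE 0.12, adjusted p = 0.878), and it was -0.24 after exchange of the R02046 libraries (adjusted p = 0.322) and -0.31 without R02046 (adjusted p = 0.336). Messenger RNA does not report the activity of TFEB, which is set largely by its phosphorylation and place in the cell.

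Among the nucleation genes, ATG14, which directs the lipid kinase complex to autophagosome formation, and UVRAG, which takes the place of ATG14 in the complex that acts on endosomes, had log2 fold changes of opposite sign, neither of which passed the test. ATG14 (chromosome 7, 117475092 to 117522016, minus strand) went from 9.29 to 16.8 CPM in R07110, from 13.7 to 22.2 CPM in R12016, from 10.9 to 10.0 CPM in R02046 and from 11.8 to 9.56 CPM in R14143. UVRAG (chromosome 14, 68872129 to 69203011, plus strand) went from 46.6 to 31.6 CPM in R07110, from 59.04 to 42.5 CPM in R12016, from 38.8 to 41.8 CPM in R02046 and from 43.5 to 41.4 CPM in R14143. In R07110 and R12016 ATG14 was higher and UVRAG lower with MRS2578, in R02046 the reverse held as labelled, and in R14143 both were lower. The log2 fold changes were 0.30 for ATG14 (SE 0.23, adjusted p = 0.897) and -0.25 for UVRAG (SE 0.14, adjusted p = 0.878). Exchanging the R02046 libraries gave 0.37 and -0.31 (adjusted p = 0.415 and 0.251), and leaving R02046 out gave 0.44 and -0.37 (adjusted p = 0.511 and 0.321).

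The shared subunits of that complex had smaller fitted log2 fold changes. BECN1 had a mean of 79.0 ± 7.33 CPM in the uLPS group and 75.5 ± 4.62 CPM in the uLPS + MRS2578 group, and PIK3C3, the lipid kinase, at 44.8 ± 5.13 and 44.4 ± 5.28 CPM. PIK3R4, its regulatory subunit, was at 47.0 ± 6.92 and 48.3 ± 8.02 CPM, and AMBRA1, which links BECN1 to the initiation complex, at 58.1 ± 7.27 and 58.0 ± 4.31 CPM (SD, n = 4 each). None of these mean differences exceeded the SD of either group, which is the spread between donors and not the error within donors. The log2 fold changes lay between -0.06 and 0.04 (SE 0.09 to 0.16). PIK3R4 is given by library after its values were seen. It went from 50.4 to 49.1 CPM in R07110 and from 54.4 to 43.9 CPM in R12016. In R02046 it went from 44.4 to 41.0 CPM and in R14143 from 38.6 to 59.2 CPM.

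Of the initiation genes, ULK2 and ATG101 had the smallest p once the R02046 libraries were exchanged; they and ULK1 are given by library after their values were seen. ULK2, a kinase closely related to ULK1, went from 94.1 to 72.3 CPM in R07110, from 83.2 to 60.3 CPM in R12016, from 67.98 to 102 CPM in R02046 and from 95.1 to 84.2 CPM in R14143. It was lower with MRS2578 in all donors but R02046. As labelled, the log2 fold change for ULK2 stood at -0.11 (SE 0.18, adjusted p = 0.942), which became -0.40 after exchange of the R02046 libraries (SE 0.10, adjusted p = 0.106) and -0.34 without R02046 (SE 0.10, adjusted p = 0.270). With the R02046 libraries exchanged and edgeR's likelihood ratio test, ULK2 was the only one of the 38 with an adjusted p under 0.05 (0.0238), among 616 of all genes.

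ATG101, which stabilizes ATG13 in the kinase complex, went from 37.8 to 49.5 CPM in R07110, from 35.7 to 53.4 CPM in R12016, from 57.2 to 47.0 CPM in R02046 and from 40.9 to 44.6 CPM in R14143. It was higher in all donors but R02046, the mirror image of ULK2, with log2 fold changes of 0.21 (SE 0.15, adjusted p = 0.897), 0.34 after exchange of the R02046 libraries (adjusted p = 0.167) and 0.36 without R02046 (adjusted p = 0.306). ULK1 itself was among the most variable genes, going from 27.2 to 24.99 CPM in R07110, from 19.7 to 35.3 CPM in R12016, from 9.92 to 11.6 CPM in R02046 and from 53.1 to 17.8 CPM in R14143. Its log2 fold change had the largest SE of the 38 (-0.16, SE 0.37), and it was -0.27 after exchange of the R02046 libraries and -0.29 without R02046. RB1CC1, the scaffold of the complex, and ATG13 were at 69.6 ± 11.1 and 58.9 ± 9.65 CPM with uLPS and at 74.1 ± 8.15 and 58.4 ± 9.26 CPM with uLPS + MRS2578 (SD, n = 4).

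The 6 genes of membrane expansion all had log2 fold changes above 0 with the deposited labels, between 0.03 and 0.23, and none passed the test. With the R02046 libraries exchanged, 3 of the 6 were above and 3 below 0. ATG9A, the membrane protein that seeds the autophagosome, had means of 60.8 ± 6.41 CPM in the uLPS group and 72.5 ± 20.6 CPM in the uLPS + MRS2578 group. It went from 62.9 to 78.5 CPM in R07110, from 63.3 to 98.9 CPM in R12016, from 65.7 to 59.1 CPM in R02046 and from 51.4 to 53.6 CPM in R14143, and it is given by library after its values were seen. The groups overlapped, with a log2 fold change of 0.22 as labelled (SE 0.14, adjusted p = 0.881), and without R02046 it was 0.34 (adjusted p = 0.357). ATG2B, a lipid transfer protein, was at 31.4 ± 7.35 and 36.4 ± 5.97 CPM, and its log2 fold change turned from 0.23 as labelled to -0.10 after the exchange. WIPI1, WIPI2 and WDR45, which bind the lipid made by PIK3C3, and ATG2A, the partner of ATG2B, had log2 fold changes between 0.03 and 0.08.

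In the conjugation group, 3 of 10 genes had log2 fold changes above 0 and 7 below, and none passed the test. ATG4A, a protease that trims ATG8 proteins before conjugation, went from 15.9 to 18.0 CPM in R07110, from 16.4 to 21.8 CPM in R12016, from 24.1 to 23.5 CPM in R02046 and from 14.2 to 18.6 CPM in R14143. It was higher with MRS2578 in 3 of 4 donors within overlapping groups (log2 fold change 0.24, SE 0.13, adjusted p = 0.878). Its relative ATG4C was lower in all 4 donors, with means of 19.8 ± 1.74 CPM in the uLPS group and 17.5 ± 3.62 CPM in the uLPS + MRS2578 group (log2 fold change -0.20, SE 0.13, adjusted p = 0.881). As labelled, ATG4C and OPTN were the only 2 of the 38 genes with the same direction in every donor (5.26%, against 13% of all genes). After exchange of the R02046 libraries 3 were higher and 6 lower in every donor (23.7%, against 23.9% of all genes).

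ATG7, the enzyme that activates both ATG12 and the ATG8 proteins, averaged 71.8 ± 5.88 CPM in the uLPS group and 63.5 ± 8.84 CPM in the uLPS + MRS2578 group. Given by library after its values were seen, ATG7 went from 74.7 to 54.7 CPM in R07110, from 76.7 to 57.1 CPM in R12016, from 63.4 to 69.8 CPM in R02046 and from 72.6 to 72.2 CPM in R14143. It was lower in R07110 and R12016 and higher in R02046 as labelled (log2 fold change -0.19, SE 0.13, adjusted p = 0.885), and without R02046 the value was -0.29 (adjusted p = 0.386). ATG3, which transfers ATG8 proteins to the lipid, and ATG5, ATG12 and ATG16L1, which form the complex that directs this transfer, had log2 fold changes between -0.05 and 0.03. ATG4B, ATG4D and ATG10 lay between -0.13 and -0.07, and ATG10 was the least abundant of all, with 55 to 112 counts per library.

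The difference between the groups was not the same in every donor. In R07110, 24 were higher and 14 lower with MRS2578, and in R12016 21 were higher and 17 lower. In R02046 17 were higher and 21 lower with the deposited labels, and in R14143 7 were higher and 31 lower. The median log2 differences were 0.06, 0.10, -0.04 and -0.17 in this order, beside medians of all genes between -0.02 and 0.00.

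A pattern of higher in R07110 and R12016 and lower in R14143 was picked out after the values were seen. It counts directions of any size, and 31 of the 38 were lower in R14143, so it is given as a description. The pattern was found in 15 of the 38 genes (39.5%), compared with 18.6% of all genes tested. These were RB1CC1, ATG14, WIPI1, WIPI2, WDR45, ATG2A, ATG3, ATG5, MAP1LC3A, MAP1LC3B, GABARAPL1, GABARAPL2, SQSTM1, TAX1BP1 and CALCOCO2, and so 3 of 5 cargo receptors and 4 of 5 ATG8 genes were among them. Conversely, ULK2, BECN1, UVRAG, ATG4C, ATG7, NBR1, OPTN and TFEB were lower, and ATG101, ATG9A and ATG4A higher, in all 3 donors whose labels are not in doubt, which makes 28.9% of the 38 with 1 direction in these donors against 36.8% of all genes.

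Differences of at least 1.5-fold were found for few of the genes. In R07110 they were found for 3 of the 38 (ATG14, GABARAPL1 and SQSTM1, all higher), where 11.9% of all genes differed that much. In R12016 there were 7 higher (ULK1, ATG14, WDR45, ATG9A, GABARAPL1, SQSTM1 and CALCOCO2) and 1 lower (ATG10), against 22.9% of all genes. In R02046, ULK2 and ATG2B were higher and MAP1LC3B and GABARAPL1 lower as labelled, against 17.3%, and in R14143 PIK3R4 was higher and ULK1, MAP1LC3A and GABARAPL1 lower, against 15.8%.

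Across the 38 genes, the log2 differences of R07110 and R12016 correlated at a Pearson r of 0.72, and at 0.58 when SQSTM1 and GABARAPL1 were left out, beside 0.64 over all 12131 genes. The r of R14143 was -0.14 with R07110 and -0.34 with R12016, and that of R02046 as labelled was -0.54 and -0.48. Over all genes these were 0.04, -0.01, -0.30 and -0.25. The genes share the libraries of each donor, so these are descriptions of 4 donors and not of 38 independent points. The study lists R07110 and R12016 as males and the other donors as females, and sex and donor cannot be told apart in these libraries.

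**Figure D4:**
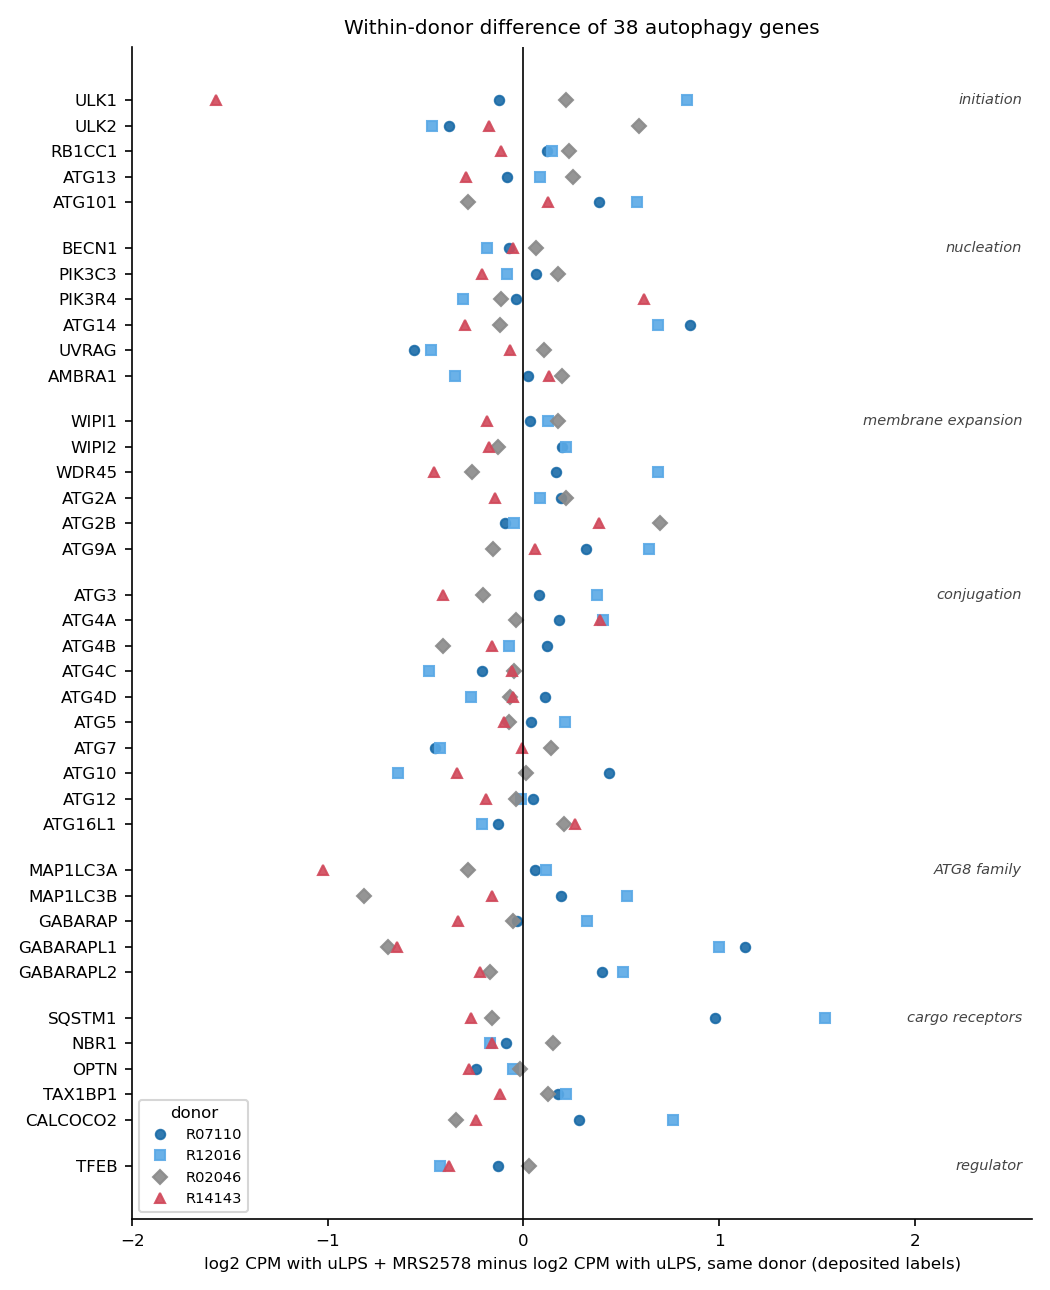
Difference in log2 CPM between uLPS + MRS2578 and uLPS within each donor for the 38 genes, grouped by role, with 1 symbol per donor and the deposited labels. R07110 and R12016 lie together to the right for SQSTM1, GABARAPL1, GABARAPL2 and ATG14 and to the left for UVRAG, ATG7 and ULK2, while R14143 lies to the left of 0 for 31 of the 38.

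Other measures of the libraries also differed between donors. The share of counts from the 13 mitochondrial mRNAs went from 0.275% to 0.187% in R07110 and from 0.313% to 0.187% in R12016, but from 0.310% to 0.298% in R02046 and from 0.356% to 0.337% in R14143. The summed fibroblast markers went from 149.7 to 232.4 CPM in R07110, from 90.2 to 203.5 CPM in R12016, from 368.6 to 529.7 CPM in R02046 and from 1191 to 430.4 CPM in R14143. As labelled they were thus lower with MRS2578 in R14143 alone, and after exchange of the R02046 libraries they were lower in R02046 as well. Of the 5 markers, 4 were above 1 CPM in every library. The uLPS library of R14143, in which ULK1 and MAP1LC3A had their highest values, was thus also the one with most fibroblast RNA. The part of the mitochondrial share and of the fibroblast markers in the values of the 38 genes was not tested.

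Leaving R14143 out brought the largest change in the calls. With the R02046 libraries exchanged and R14143 left out, 4 of the 38 genes had an adjusted p under 0.05, against 7.57% of all genes (918 of 12128). GABARAPL1 was higher with MRS2578 (log2 fold change 0.95, SE 0.12, adjusted p = 0.0079), as were SQSTM1 (0.89, SE 0.22, adjusted p = 0.0476) and ATG101 (0.42, SE 0.10, adjusted p = 0.0478), and ULK2 was lower (-0.48, SE 0.09, adjusted p = 0.0235). With the deposited labels, leaving out any 1 donor called 0 of the 38.

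Besides the 38, 60 other genes of the pathway were listed by function, of which 59 had 1 row in the files and 56 were tested. They comprise regulators such as the MTOR and AMPK kinases, further core genes, further receptors, genes of the fusion with lysosomes, and genes of chaperone-mediated autophagy, a route in which HSPA8 hands single proteins to LAMP2 on the lysosome. None passed the test as labelled, after exchange of the R02046 libraries or without R02046, and the median of their log2 fold changes as labelled was 0.02. At an unadjusted p under 0.05 there were 3, 13 and 8 of the 56, where the shares of all genes were 5.14%, 16.4% and 13.6%. By group, 7 of 13 regulators, 2 of 9 core genes, 8 of 11 receptors and 9 of 16 fusion genes were above 0 with the deposited labels. So were 7 of 8 genes on the list of chaperone-mediated autophagy, with values from 0.01 (EEF1A1) to 2.00 (BAG3). Of all genes tested, 5809 of 12131 were above 0. LAMP2 is counted in both of the last groups, and the last list also holds BAG3, which acts with SQSTM1.

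The 3 with the largest log2 fold changes were a chaperone and 2 co-chaperones. BAG3, a co-chaperone that passes misfolded clients to SQSTM1, went from 54.6 to 691.5 CPM in R07110, from 49.6 to 1271 CPM in R12016, from 212 to 59.5 CPM in R02046 and from 52.5 to 93.3 CPM in R14143. DNAJB1, a co-chaperone of the HSP70 family, and HSP90AA1, the inducible cytosolic HSP90, had the same directions in every donor as BAG3, with log2 differences of 3.25 and 1.70 in R07110, 3.81 and 2.19 in R12016, -1.01 and -0.51 in R02046, and 0.71 and 0.14 in R14143. The log2 fold changes were 2.00 for BAG3 (SE 1.19), 1.75 for DNAJB1 (SE 0.87) and 0.88 for HSP90AA1 (SE 0.47), all with an adjusted p of 0.878. After exchange of the R02046 libraries they were 2.76, 2.20 and 1.13 (adjusted p = 0.0931, 0.108 and 0.154), and without R02046 3.14, 2.65 and 1.36 (adjusted p = 0.207, 0.199 and 0.265). All 3 had an adjusted p under 0.05 after the exchange in 2 other fits, edgeR's likelihood ratio test and the quasi-likelihood test with R14143 left out. SQSTM1 shared the direction of these 3 genes in R07110, R12016 and R02046 and differed from them in R14143, where it was lower.

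Upstream windows of the 38 genes were searched for short motifs of factors that act on autophagy and stress genes. Both strands of Mmul_10 (RefSeq annotation) were read. Each window held the 250 bases before the outermost start of the gene's curated transcripts, or of its predicted ones where none was curated. Starts of other transcripts were not searched, so some windows lie inside their gene, as for SQSTM1, ATG4C, ATG9A and TFEB. The core of the E-box, CACGTG, to which TFEB and many other factors bind, occurred in 3 of the 38 windows (7.89%) and in 6.64% of all 20782 windows. These 3 belong to UVRAG, ATG3 and ATG5, and each lies within the last 25 bases before the start, where 13.2% of all windows with the motif have it. The limit of 25 bases was not fixed beforehand, so this share is a description only. The starts of UVRAG and ATG5 are predicted. The last 60 bases are shown with the motif in capitals, so that its place before the start can be seen.

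UVRAG, chr14:68872069-68872128, plus strand: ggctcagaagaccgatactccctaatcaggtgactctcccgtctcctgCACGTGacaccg

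ATG3, chr2:163616341-163616400, plus strand: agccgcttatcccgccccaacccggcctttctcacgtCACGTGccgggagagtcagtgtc

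ATG5, chr4:66883401-66883460, plus strand: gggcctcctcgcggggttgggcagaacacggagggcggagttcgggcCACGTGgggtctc

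The core of the antioxidant response element, TGACNNNGC, was found in 5 of the 38 windows (13.2%) and in 2280 of all 20782, those of ATG101, WIPI1, ATG4D, ATG10 and MAP1LC3B. A pair of heat shock units, GAANNTTC, was found in 2 of the 38 (5.26%, against 4.97%), those of PIK3C3 and GABARAPL2. The windows of SQSTM1 and GABARAPL1 held none of these motifs, which says only that these letters are not within the 250 bases searched. The SQSTM1 window (177240339 to 177240588) lies inside the gene, after an earlier annotated start that was not searched. The shares in the 38 windows were near those of all windows, and a match of letters is not a binding site.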

How the data were processed

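RNA was measured by sequencing of poly(A) RNA in 8 libraries, 4 per group, grouped by the treatment and donor in the sample labels. The files hold, as deposited by the authors, whole-number read counts per Ensembl gene without normalization. The submitters' processing notes name Trimmomatic 0.30, TopHat2 2.0.14, SAMtools 1.3 and HTSeq 0.6.1p1 with the genome Mmul_10, whereas the study's methods name fastp, STAR, SAMtools and HTSeq and the counting of unique reads in exons, and which of these made the files is not known. The strand setting and annotation release are not given in the sources used here, so overlapping genes and near-identical copies have uncertain counts.

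The files were read in R 4.3.3. Genes were kept by filterByExpr (minimum count 10), scaled by TMM, and tested with edgeR 4.0.16 (limma 3.58.1) by its quasi-likelihood F-test for uLPS + MRS2578 against uLPS, with the donor as replicate block because both libraries of a donor come from 1 animal. Within each donor, the departures of both libraries from their group means correlated across genes, at 0.458 to 0.602. Calls were made at an adjusted p of 0.05 over all genes tested. The SE is the log2 fold change over the root of F, and log2 differences within donors have a prior count of 2. A count of 0 allows up to 3 counts, which is 0.0914 to 0.320 CPM, covering counting error only. No pair of libraries was a duplicate (chi-square per degree of freedom at least 19.7). The labels do not say whether the donors' cells were prepared or sequenced in batches.

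Alternatives were the exchange of the R02046 libraries, no replicate block, each donor left out, DESeq2 1.42.0 (size factors and Wald test), the likelihood ratio test, other filters on low counts and, added after the data were seen, edgeR's earlier quasi-likelihood estimation and the no-block, likelihood ratio and earlier-estimation fits with R02046 exchanged. Transcripts were aligned to Mmul_10 with blastn, and copies of at least 100 bases at 90% identity or more were kept. The script was tested on simulated data. The members and lists were chosen with earlier results of these data known. All 38 members are described by role. Values by library are given for the ATG8, receptor and regulator lists, for the 5 largest log2 fold changes as labelled (SQSTM1, ATG14, MAP1LC3A, UVRAG, ATG4A) and for any member called as labelled, after the exchange or without R02046. Of the other lists, the same calls and the 3 largest log2 fold changes are named.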

Additional observations from a re-analysis of the deposited data

Results flagged for a closer look

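In a group of 4 donors, the highest or lowest value was singled out when its distance from the next value, divided by the range of the group, exceeded Dixon's 95% critical value. Among the 76 groups examined (38 genes in 2 groups), 3 did so, and chance gives about 1 in 20. ATG13 in R12016 with uLPS + MRS2578, at 72.2 CPM, lay above the other donors, of which the next was at 55.1 CPM. UVRAG in R07110 with uLPS + MRS2578, at 31.6 CPM, lay below the others, of which the next was at 41.4 CPM. TFEB in R02046 with uLPS, at 33.5 CPM, lay below the others, of which the next was at 38.1 CPM. Since the condition of the R02046 libraries is uncertain, the last of these depends on the labels.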

How the results depend on the processing

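The count of the 38 genes with an adjusted p under 0.05 was 0 in every fit that kept the deposited labels, including the fit with no replicate block (0), while all genes gave 1 with the DESeq2 Wald test and 5 with edgeR's likelihood ratio test. With the R02046 libraries exchanged, all genes called were 75, and 39 with edgeR's earlier quasi-likelihood estimation. The likelihood ratio test then gave 616, with 1 of the 38 (ULK2) and 6 of the other autophagy genes. Leaving out 1 donor gave 0 to 918 of all genes, 0 to 4 of the 38 and 0 to 7 of the other genes, the highest each time with R02046 exchanged and R14143 left out. The numbers of a donor pair the libraries, and with no replicate block and R02046 exchanged no gene passed. The median log2 fold change of the 38 ran from -0.0623 to 0.0656 over all fits. Low counts limit mainly ATG10, MAP1LC3A and MAP1LC3B, which had 40 to 386 counts per library. For MAP1LC3B the copy on chromosome 2 makes the counts uncertain as well.

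The sign of the log2 fold change turned in 108 of 684 values of single genes under alternatives. This was not confined to values near 0, since MAP1LC3A (-0.28 as labelled) and ATG2B (0.23 as labelled) also turned in some fits. With R02046 exchanged, by setting in the order quasi-likelihood test, no replicate block, likelihood ratio test and earlier estimation, RB1CC1 was at -0.017, -0.0058, -0.016 and -0.017, WIPI1 at -0.050, -0.070, -0.051 and -0.050, ATG2B at -0.095, -0.055, -0.103 and -0.0998, ATG3 at 0.062, 0.068, 0.062 and 0.062, ATG4B at 0.068, 0.061, 0.069 and 0.070, MAP1LC3B at 0.293, 0.32, 0.32 and 0.32, and GABARAP at 0.0023, 0.0016, 0.0024 and 0.0024. AMBRA1 was at -0.096 and ATG16L1 at -0.069 in all of these, and ATG2A at -0.014, -0.014 and -0.016 in the fits with the block. With the deposited labels, AMBRA1 was at -0.0047 and MAP1LC3B at 0.14 with no replicate block, AMBRA1 at -0.0017 with DESeq2 size factors, -0.0020 with the DESeq2 Wald test and -0.0064 with no filter on low counts, and MAP1LC3B at 0.018 with no filter.

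Leaving out each donor in turn, as labelled or with R02046 exchanged, the log2 fold changes of the genes whose sign turned ran from -0.20 to 0.080 for ATG13, -0.18 to 0.12 for AMBRA1, -0.032 to 0.18 for WIPI2, -0.17 to 0.37 for WDR45, -0.12 to 0.95 for GABARAPL1, -0.48 to 0.0086 for ULK2, -0.16 to 0.050 for PIK3C3, -0.13 to 0.049 for ATG4D, -0.039 to 0.11 for ATG5, -0.33 to 0.056 for ATG10, -0.090 to 0.46 for CALCOCO2, -0.10 to 0.11 for WIPI1, -0.17 to 0.22 for ATG3, -0.18 to 0.12 for ATG16L1, -0.19 to 0.49 for MAP1LC3B, -0.67 to 0.31 for ULK1, -0.16 to 0.24 for PIK3R4, -0.13 to 0.11 for GABARAP, -0.067 to 0.16 for RB1CC1, -0.091 to 0.16 for ATG2A, -0.26 to 0.34 for ATG2B, -0.22 to 0.14 for ATG4B, -0.014 to 0.17 for TAX1BP1, -0.084 to 0.024 for ATG12 and -0.42 to 0.13 for MAP1LC3A. The cause was not tested.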
